A study of Mus musculus with 8 samples.

Results

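Xenobiotic metabolism enzymes, the proteins that oxidise, hydrolyse and conjugate drugs, dietary chemicals and many of the body's own lipids, were followed through 8 RNA-sequencing libraries of sorted mouse intestinal epithelium. The genes were chosen by name, as every symbol of the deposited table that begins with Cyp and a number (cytochromes P450), Ces1, Ces2 or Ces3 (carboxylesterases), Ugt1 or Ugt2 (UDP-glucuronosyltransferases), Sult and a number (cytosolic sulfotransferases), or Gsta, Gstm, Gsto, Gstp, Gstt, Gstz or Gstk (glutathione S-transferases). The name rule matched 178 of 24013 symbols. Of these, 80 reached 1 FPKM (sequenced fragments scaled to transcript length and to library size) in at least 2 of the 8 libraries and are described here, among 11190 genes that passed the same filter. The 98 others stayed below it, 45 of them at 0 in every library.

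All mice carried Lyz1CreER and R26R-tdT on a mixed C57/BL6 and 129 background, were 8 to 14 weeks old and received 1 dose of 10 mg tamoxifen. The Cre recombinase is driven by Lyz1, the lysozyme gene of Paneth cells, so the red protein tdTomato marks cells that expressed Lyz1 when tamoxifen was given and all of their descendants. Viable EpCAM+ CD45- cells with tdTomato were split by the surface protein CD24. There were 3 libraries of tdTomato+ CD24- cells from mice irradiated 5 days earlier, which the submitters call derivatives, 3 libraries of tdTomato+ CD24+ cells from mice irradiated 5 days earlier, which they call Paneth cells, and 2 libraries of tdTomato+ CD24+ cells from non-irradiated mice. Non-irradiated CD24- cells are not analysed here. The CD24- group therefore differs from the non-irradiated group in gate and irradiation together. The radiation dose is not given in the sources used here.

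Detoxication runs in stages. Phase I enzymes (cytochromes P450, which need electrons from the reductase Por, and carboxylesterases) add or uncover a reactive group, and phase II enzymes attach glucuronic acid, sulfate or glutathione to it. In the small intestine this system sits mostly in the absorptive enterocytes of the villus, which meet ingested chemicals first, and the nuclear receptors Nr1i2 (PXR) and Nr1i3 (CAR), the aryl hydrocarbon receptor Ahr and the stress factor Nfe2l2 (NRF2) adjust its output. The name rule also takes in relatives that serve other pathways, such as Cyp51, which makes cholesterol, and Cyp27a1 and Cyp39a1, which hydroxylate sterols.

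The gates carried the markers of their labels, and a few values of the whole series bear on the enzymes. Between the irradiated gates, all 14 Paneth markers were called lower in CD24- cells and all 18 enterocyte markers higher. Summed enterocyte markers were 20800, 27390 and 45190 FPKM in irradiated CD24- cells, 1196, 1060 and 1695 FPKM in irradiated CD24+ cells, and 642.8 and 2921 FPKM in non-irradiated CD24+ cells. The replicates of the non-irradiated group thus stood apart in enterocyte transcripts. Summed Paneth markers were 29470, 7759 and 4037 FPKM in irradiated CD24- cells, 408000, 359000 and 351900 FPKM in irradiated CD24+ cells, and 533100 and 409700 FPKM in non-irradiated CD24+ cells. The median gene was 0.51 higher on the log2(FPKM + 1) scale in irradiated CD24- than in irradiated CD24+ cells. Median-of-ratios scaling, which sets each library's typical gene to the same level, reduced that median to 0.04, so both scalings are given. In RNA from pooled cells, fewer cells of a type and less RNA per cell cannot be told apart. Between the irradiated gates 48.6% of all genes tested were called higher and 7.27% lower in CD24- cells, and 32.4% and 24.4% after that scaling. Of the lists for other cells, 3 of 10 goblet markers had higher and 4 had lower calls in CD24- than in CD24+ cells of irradiated mice. Of 13 enteroendocrine markers 3 were called higher and 2 lower, and 8 and 2 with replicate number as a block. Of 8 tuft markers 1 was called higher and 6 lower, and of 9 stem cell markers 0 and 9. Of 10 proliferation genes 0 were called in either direction, while 5 were called lower after median-of-ratios scaling and 2 with the block. Few leukocyte and stromal markers passed the filter, 2 and 1, with Ptprc below it and Acta2 at 0 in every library. Of the 2 leukocyte markers 1 was called higher and 1 lower, the second being Lyz2, which is also on the Paneth list. The stromal marker was not called, but was called higher with the block. Summed stromal markers were 4.06, 12.17 and 44.71 FPKM in irradiated CD24- cells. In irradiated CD24+ cells they were 1.94, 6.27 and 10.86 FPKM, and in non-irradiated ones 0.785 and 1.52 FPKM. Of 8 markers of hepatocytes, the other cells rich in these enzymes, 3 passed the filter, 0 were called higher and 1 lower (0 after median-of-ratios scaling, 2 with the block), and Alb stood at 0.274, 0.512 and 2.85 FPKM in irradiated CD24- cells, 0, 0.776 and 0.723 FPKM in irradiated CD24+ cells, and 0.13 and 0.131 FPKM in non-irradiated CD24+ cells.

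The first comparison sets the derivatives against the Paneth cell gate of irradiated mice. Of the 80 enzymes past the filter, 68 had higher RNA levels in CD24- cells, 4 had lower ones, and 8 were not called, at an adjusted p under 0.05 in limma. Over all genes tested, 48.6% were called higher and 7.27% lower. The median log2 fold change was 2.1 for the enzymes and 0.51 for all genes. After median-of-ratios scaling 62 of the 80 had higher and 6 lower levels, against 32.4% and 24.4% of all genes, with medians of 1.63 and 0.04. Among the 80, 11 passed the filter through the CD24- libraries alone and so had to differ: Ces2b, Ces2d-ps, Ces3a, Cyp2c44, Cyp2c67, Cyp2j9, Cyp2u1, Cyp3a59, Cyp4a10, Ugt1a10 and Ugt2b38. The family counts given later include them. The other 69 held 57 enzymes called higher, all 4 called lower and the 8 not called. Of these 69, Cyp2d22, Cyp2c55, Ugt2b36, Ugt1a9 and Cyp2c29 reached 1 FPKM in only 1 CD24+ library. They too passed the filter with the help of CD24- libraries, and all but Cyp2c29 were called higher. Of the 4 called lower, Cyp2e1 and Ces1b in turn needed CD24+ libraries to pass it. Without a filter on low values, where more genes near 0 enter the fit, 60 enzymes were called higher and 1, Cyp20a1, lower. The calls lost there included those of Ces1c, Ces1b, Cyp2e1, Cyp3a59 and Cyp4b1. After rescaling to TPM, 75 were called higher and 0 lower, and Cyp20a1 was then among those called higher.

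Summed over the 80 genes, the enzymes reached 5371, 6456 and 7363 FPKM in irradiated CD24- cells, 856.6, 890.8 and 959.8 FPKM in irradiated CD24+ cells, and 551 and 1173 FPKM in non-irradiated CD24+ cells. Every CD24- library lay far above every CD24+ library, and the 2 non-irradiated libraries fell on either side of the irradiated CD24+ ones. The ratio of group means between the irradiated gates was 7.09, against 4.81 after median-of-ratios scaling and 17.1 after rescaling to TPM. By role, 36 of 45 phase I enzymes were called higher, 4 lower and 5 not at all, while 32 of 35 phase II enzymes were called higher, 0 lower and 3 not at all. Over all genes tested, 48.6% were called higher and 7.27% lower. The counts by role include the 11 enzymes that passed the filter through CD24- libraries alone. The lower calls are too few to set the roles apart. All 4 enzymes called lower were of phase I: Ces1c, Ces1b, Cyp2e1 and Cyp20a1. This held for the reported scaling. Median-of-ratios scaling added Cyp4f17 and Gstm5, the second of phase II, and after rescaling to TPM 0 were called lower. The enterocyte markers given above were higher in CD24- cells too, and their part in the shift was not tested.

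**Figure D1:**
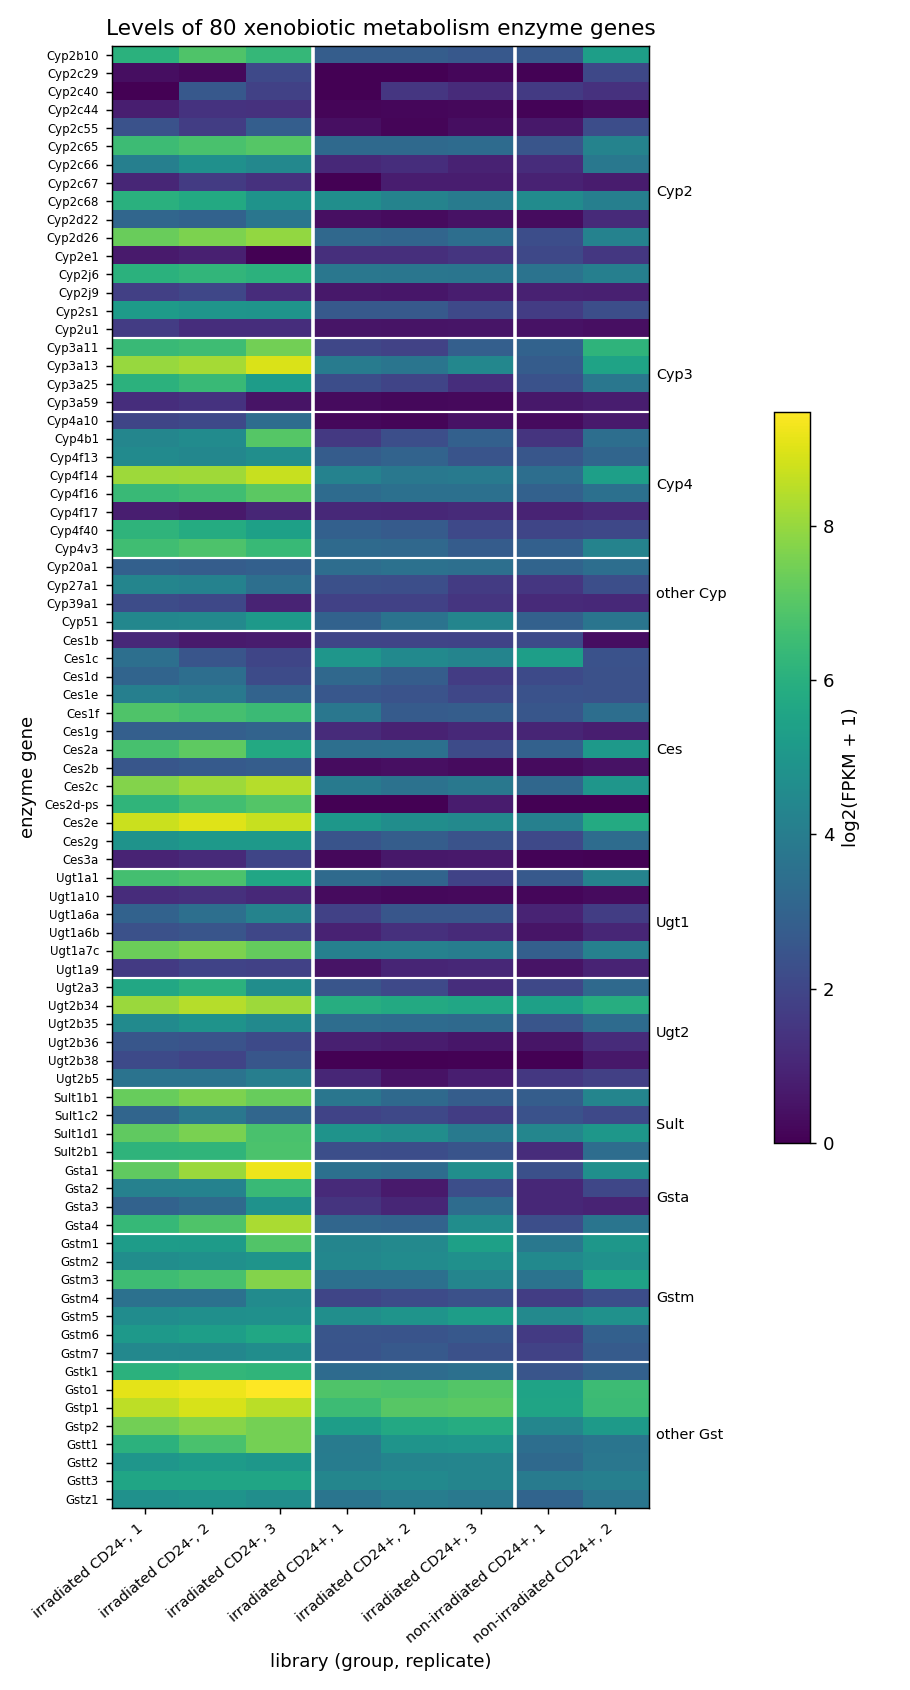
Heat map of log2(FPKM + 1) for the 80 enzyme genes (rows, by family) in the 8 libraries (columns, irradiated CD24- left, irradiated CD24+ in the middle, non-irradiated CD24+ right). Most rows are brighter in the 3 CD24- libraries, while Ces1c, Cyp20a1 and Gstm5 are not, and replicate 2 of the non-irradiated group is brighter than replicate 1 in 65 of 80 rows.

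The promoters of 4 enzymes are shown because these genes mark the extremes of the comparison among enzymes with a RefSeq promoter: Cyp3a11, Cyp2d26 and Cyp3a13 had the 3 largest rises, and Ces1c had the largest fall. Each sequence is the 250 bases before the RefSeq transcription start in GRCm38.p6, on the strand of the gene, with matches to CAAAGT (the core of HNF4 sites) or GTTAAT (the core of HNF1 sites) in capitals on either strand. Cyp3a11 lies at chr5:145879855-145880104 on the minus strand, Cyp2d26 at chr15:82794246-82794495 on the minus strand, Cyp3a13 at chr5:137921620-137921869 on the minus strand and Ces1c at chr8:93131284-93131533 on the minus strand.
Cyp3a11: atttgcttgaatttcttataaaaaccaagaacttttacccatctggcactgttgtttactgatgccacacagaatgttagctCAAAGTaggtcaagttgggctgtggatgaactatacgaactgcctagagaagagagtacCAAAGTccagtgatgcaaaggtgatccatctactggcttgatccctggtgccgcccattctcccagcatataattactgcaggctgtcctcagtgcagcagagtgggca
Cyp2d26: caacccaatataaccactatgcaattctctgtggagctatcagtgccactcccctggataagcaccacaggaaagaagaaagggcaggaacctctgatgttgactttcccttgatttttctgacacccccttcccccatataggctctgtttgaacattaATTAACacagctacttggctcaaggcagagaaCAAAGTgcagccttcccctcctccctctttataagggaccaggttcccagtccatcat
Cyp3a13: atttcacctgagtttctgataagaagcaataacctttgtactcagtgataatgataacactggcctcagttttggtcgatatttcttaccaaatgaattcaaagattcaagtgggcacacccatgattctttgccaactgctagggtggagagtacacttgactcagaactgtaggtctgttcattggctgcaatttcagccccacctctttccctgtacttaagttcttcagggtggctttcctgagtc
Ces1c: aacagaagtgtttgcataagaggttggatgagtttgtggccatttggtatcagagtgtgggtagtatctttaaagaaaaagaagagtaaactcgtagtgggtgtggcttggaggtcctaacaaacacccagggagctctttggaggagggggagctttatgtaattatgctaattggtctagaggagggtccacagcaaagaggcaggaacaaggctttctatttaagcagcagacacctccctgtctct
The first of these holds CAAAGT at 2 positions, the second holds 1 match to each motif (GTTAAT on the opposite strand, printed ATTAAC), and neither Cyp3a13 nor Ces1c holds a match.

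RefSeq listed a promoter for 66 of the 80 enzymes. CAAAGT was found on either strand of the same 250-base window in 34.8% of them, in 12.8% of genes tested and in 14.1% of all genes with a promoter. GTTAAT was found in 18.2% of the enzymes, 5.1% of genes tested and 7.49% of all genes. The TATA core TATAAA was found in 18.2%, 8.04% and 14.3%, and the CDX motif TTTATG in 13.6%, 7.46% and 12.4%, in the same order. The core of aryl hydrocarbon receptor sites, GCGTG, was found in 22.7% of the enzymes, 50.9% of genes tested and 30.9% of all genes, and the antioxidant response core TGACNNNGC in 6.06%, 14.2% and 11.5%. By call, CAAAGT was found in 18 of 57 enzymes called higher, in 1 of 4 called lower (Cyp20a1), and in 4 of 5 not called (Cyp2c29, Cyp2c40, Gstm1 and Gstm5). The 2 motifs in capitals were chosen after these shares were seen. The shares are descriptions of letters in a short window, and a match is not a bound site. Hnf4a, the gut and liver factor that binds the first motif, stood at 249, 187 and 213 FPKM in irradiated CD24- cells, 84.7, 93.8 and 78.6 FPKM in irradiated CD24+ cells, and 41.9 and 74.7 FPKM in non-irradiated CD24+ cells.

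Among phase I enzymes, Cyp3 genes had the largest family median, a log2 fold change of 4.25 in irradiated CD24- over irradiated CD24+ cells, and 4 of 4 were called higher. Cyp3a11, the main drug-oxidising P450 of mouse liver and gut and a target of Nr1i2, stood at 85, 91.2 and 178 FPKM in irradiated CD24- cells, 3.01, 2.67 and 6.41 FPKM in irradiated CD24+ cells, and 6.95 and 71.7 FPKM in non-irradiated CD24+ cells. The irradiated gates did not overlap, and 1 non-irradiated library reached nearly the CD24- range. The difference between the irradiated gates was 4.55 ± 0.64 log2 units (SE, limma adjusted p = 0.000152). Cyp3a13, its relative in the intestine, was the most abundant enzyme of the family in both irradiated groups but not in the non-irradiated one. It stood at 258, 293 and 494 FPKM in irradiated CD24- cells, 14.5, 11.8 and 20.1 FPKM in irradiated CD24+ cells, and 5.74 and 44.3 FPKM in non-irradiated CD24+ cells. Its log2 fold change was 4.38 ± 0.56 log2 units (SE, limma adjusted p = 7.62e-05), and every CD24- library lay above every CD24+ library. Cyp3a25 ran at 67, 84.3 and 37 FPKM in irradiated CD24- cells, against 3.71, 2.84 and 1.35 FPKM in irradiated CD24+ cells. Cyp3a25 differed by 4.11 ± 0.40 log2 units (SE, limma adjusted p = 1.42e-05). Cyp3a59, at 1.35, 1.59 and 0.423 FPKM in irradiated CD24- cells, against 0.218, 0.152 and 0.176 FPKM in irradiated CD24+ cells, was called higher by 0.80 ± 0.21 log2 units (SE, limma adjusted p = 0.00724). Reads could be divided differently between these last 2 genes, since 30% of the distinct 50-base stretches of Cyp3a59 transcripts also occur in other genes, mostly Cyp3a25.

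The Cyp2 family, the largest group with 16 genes past the filter of 51 matched, had a median of 1.65, with 13 called higher, 1 lower and 2 not called. Cyp2d26, of the subfamily that metabolises many basic drugs, stood at 157, 194 and 246 FPKM in irradiated CD24- cells, 8.13, 7.52 and 9.69 FPKM in irradiated CD24+ cells, and 3.7 and 17.3 FPKM in non-irradiated CD24+ cells. It was higher by 4.39 ± 0.40 log2 units (SE, limma adjusted p = 1.12e-05), and no CD24+ library came near the CD24- range. Cyp2c65, which oxidises arachidonic acid, stood at 88.5, 106 and 127 FPKM in irradiated CD24- cells, 8.42, 8.42 and 8.99 FPKM in irradiated CD24+ cells, and 4.73 and 17.9 FPKM in non-irradiated CD24+ cells. Cyp2c65 differed by 3.48 ± 0.36 log2 units (SE, limma adjusted p = 1.97e-05) between the irradiated gates. Cyp2b10, the classic target of Nr1i3, stood at 66.2, 115 and 79 FPKM in irradiated CD24- cells, 6.02, 6.03 and 5.13 FPKM in irradiated CD24+ cells, and 5.34 and 38.8 FPKM in non-irradiated CD24+ cells. Its irradiated gates differed by 3.67 ± 0.51 log2 units (SE, limma adjusted p = 0.000138), and the non-irradiated libraries spanned a wide gap. Cyp2j6, of a subfamily that acts on polyunsaturated fatty acids, was steady within groups, at 66, 75.7 and 66.9 FPKM in irradiated CD24- cells, 12.6, 12.1 and 11.7 FPKM in irradiated CD24+ cells, and 11.1 and 16.2 FPKM in non-irradiated CD24+ cells. Cyp2j6 differed by 2.42 ± 0.20 log2 units (SE, limma adjusted p = 7.53e-06).

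Not every Cyp2 gene followed. Cyp2e1, the ethanol-oxidising enzyme, stood at 0.615, 0.781 and 0 FPKM in irradiated CD24- cells, 1.44, 1.41 and 1.73 FPKM in irradiated CD24+ cells, and 3.13 and 1.94 FPKM in non-irradiated CD24+ cells. It was called lower, at -0.83 ± 0.23 log2 units (SE, limma adjusted p = 0.00917), and the irradiated gates did not overlap, although all values were low. Cyp2e1 stayed below 1 FPKM in every CD24- library, so it passed the filter through CD24+ libraries alone, where it is higher. Cyp2c29 and Cyp2c40 were not called. Cyp2c29 had 0.266, 0.145 and 3.3 FPKM in irradiated CD24- cells, against 0, 0 and 0.11 FPKM in irradiated CD24+ cells. Cyp2c29 differed by 0.83 ± 0.53 log2 units (SE, limma adjusted p = 0.202), with its highest level in replicate 3. Its adjusted p was 0.0136 with replicate number as a block. Cyp2c40, at 0, 5.07 and 2.55 FPKM in irradiated CD24- cells, against 0, 1.83 and 1.27 FPKM in irradiated CD24+ cells, overlapped between the gates, and 60.3% of its 50-base stretches occur in other genes. The 9 Cyp2 genes not named so far were called higher by 0.83 (Cyp2c67) to 3.36 (Cyp2c66) log2 units, and Cyp2c67 and Cyp2c68 lost the call after median-of-ratios scaling and without a filter. For Cyp2c67 and Cyp2c68, 52.8% and 43.3% of the 50-base stretches occur in other genes. Of the 35 Cyp2 genes below the filter, Cyp2r1, a vitamin D hydroxylase, came closest with 1.07 FPKM in replicate 3 of the CD24- cells alone.

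The Cyp4 family, whose members mostly hydroxylate fatty acids and eicosanoids, had a median of 3.13, with 7 of 8 called higher. Cyp4f14, which inactivates leukotrienes, was the most abundant at 272, 281 and 414 FPKM in irradiated CD24- cells, 17.2, 12.8 and 13.8 FPKM in irradiated CD24+ cells, and 9.87 and 39.5 FPKM in non-irradiated CD24+ cells. The CD24- libraries were all above the CD24+ ones, by 4.36 ± 0.40 log2 units (SE, limma adjusted p = 1.17e-05). Cyp4f16 stood at 85.7, 95 and 136 FPKM in irradiated CD24- cells, against 8.94, 10.3 and 10.2 FPKM in irradiated CD24+ cells. Cyp4f16 differed by 3.27 ± 0.23 log2 units (SE, limma adjusted p = 5.58e-06). Cyp4v3, a fatty acid hydroxylase, stood at 93.4, 113 and 83 FPKM in irradiated CD24- cells, against 8.6, 8.21 and 5.81 FPKM in irradiated CD24+ cells. Cyp4v3 differed by 3.52 ± 0.31 log2 units (SE, limma adjusted p = 9.82e-06). Cyp4b1, which can turn some furans into toxic products, varied most, at 19.3, 22.9 and 124 FPKM in irradiated CD24- cells, 1.98, 3.84 and 6.51 FPKM in irradiated CD24+ cells, and 1.71 and 9.64 FPKM in non-irradiated CD24+ cells. Cyp4b1 was higher, at 3.04 ± 0.67 log2 units (SE, limma adjusted p = 0.00266). Its replicate 3 was the highest library of both irradiated gates. Cyp4a10, Cyp4f13 and Cyp4f40 were called higher by 2.21, 1.78 and 3.21 log2 units. Cyp4f17 was the exception, at 0.74, 0.575 and 1.04 FPKM in irradiated CD24- cells, against 1.12, 1.06 and 1.2 FPKM in irradiated CD24+ cells. Cyp4f17 differed by -0.26 ± 0.15 log2 units (SE, limma adjusted p = 0.175). It was called lower after median-of-ratios scaling, at -0.50.

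The 4 remaining P450 genes serve sterols or have no settled substrate, and their median of 0.52 was close to that of all genes, 0.51. Cyp27a1, the sterol hydroxylase of mitochondria, was called higher, at 19.1, 17.6 and 10.1 FPKM in irradiated CD24- cells, against 3.92, 3.91 and 2.13 FPKM in irradiated CD24+ cells. Cyp27a1 differed by 1.93 ± 0.29 log2 units (SE, limma adjusted p = 0.000245). Cyp51, the demethylase of cholesterol synthesis, stood at 19.9, 21.1 and 34.5 FPKM in irradiated CD24- cells, 6.93, 11.3 and 18.8 FPKM in irradiated CD24+ cells, and 6.77 and 11.8 FPKM in non-irradiated CD24+ cells. Cyp51 was higher by 1.03 ± 0.34 log2 units (SE, limma adjusted p = 0.0235). That call was lost after median-of-ratios scaling, at 0.50 with adjusted p = 0.207. It was also lost without replicate 3 of the CD24- cells or replicate 1 or 2 of the irradiated CD24+ cells, with adjusted p from 0.0537 to 0.0996. Cyp39a1 overlapped between the gates, at 3.62, 3.12 and 0.913 FPKM in irradiated CD24- cells, against 2.57, 2.59 and 1.78 FPKM in irradiated CD24+ cells. Cyp39a1 differed by 0.01 ± 0.29 log2 units (SE, limma adjusted p = 0.979). Cyp20a1, an orphan P450, stood at 6.55, 5.98 and 6.55 FPKM in irradiated CD24- cells, 9.37, 10.8 and 10.1 FPKM in irradiated CD24+ cells, and 7.32 and 9.73 FPKM in non-irradiated CD24+ cells. Cyp20a1 was called lower, at -0.59 ± 0.18 log2 units (SE, limma adjusted p = 0.0138). It was no longer called without replicate 2 of the CD24- cells, or without replicate 2 or 3 of the irradiated CD24+ cells, where its adjusted p ran from 0.0533 to 0.0713. After rescaling to TPM it was called higher instead, at 0.54 with adjusted p = 0.0285. No Cyp1 gene passed the filter: Cyp1a1, the best known target of Ahr, peaked at 0.0172 FPKM.

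**Figure D2:**
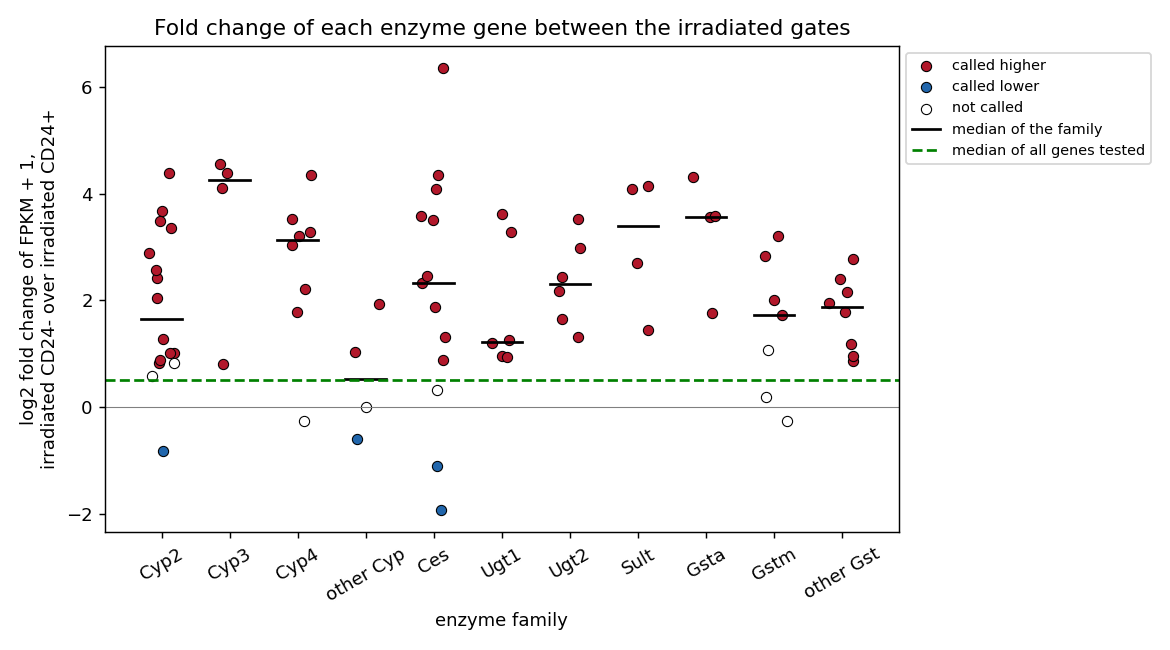
Log2 fold change of FPKM + 1 in irradiated CD24- over irradiated CD24+ cells (y axis) for each enzyme gene, by family (x axis); filled points were called in limma, open points were not, black bars are family medians and the dashed line is the median of all genes tested (0.51). Cyp3, Gsta, Sult and Cyp4 medians lie above 3, other Cyp near the dashed line, and 4 genes are called lower.

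Carboxylesterases, which cleave ester drugs and lipid esters, split by subfamily. All 6 Ces2 genes past the filter were called higher, 2 of which (Ces2b and Ces2d-ps) passed it through CD24- cells alone, and the 6 Ces1 genes were divided between 3 higher, 2 lower and 1 not called. Ces2e was the most abundant of all 13 esterases, at 417, 519 and 409.8 FPKM in irradiated CD24- cells, 31.1, 24.2 and 21.4 FPKM in irradiated CD24+ cells, and 16.7 and 54.1 FPKM in non-irradiated CD24+ cells. It was higher by 4.09 ± 0.37 log2 units (SE, limma adjusted p = 9.96e-06), and each CD24- library was far above each CD24+ library. Ces2c, which also acts on acylglycerols, stood at 208, 276 and 348 FPKM in irradiated CD24- cells, 13.6, 10.9 and 12.9 FPKM in irradiated CD24+ cells, and 7.88 and 30.6 FPKM in non-irradiated CD24+ cells. Ces2c differed by 4.34 ± 0.39 log2 units (SE, limma adjusted p = 1.05e-05), and 36.1% of its 50-base stretches occur in other genes, mostly Ces2d-ps. Ces2a, at 104, 141 and 53.5 FPKM in irradiated CD24- cells, against 9.92, 10.4 and 3.52 FPKM in irradiated CD24+ cells, differed by 3.50 ± 0.55 log2 units (SE, limma adjusted p = 0.000285), and its replicate 3 was the lowest library in both gates. Ces2b and Ces2g, with Ces3a of the third subfamily, were called higher by 2.33, 2.46 and 0.88 log2 units. Ces3a lost the call after median-of-ratios scaling (adjusted p = 0.0694) and without a filter, and both Ces2b and Ces3a passed the filter through CD24- cells alone. Ces2d-ps, annotated as a pseudogene, had 73, 97.8 and 122 FPKM in irradiated CD24- cells, 0, 0 and 0.646 FPKM in irradiated CD24+ cells and was listed at 0 in both non-irradiated libraries. It showed the largest log2 fold change of the 80 genes, 6.35 ± 0.25 log2 units (SE, limma adjusted p = 3.54e-07), but 76.9% of its 50-base stretches occur in other genes, Ces2c among them, so its level is uncertain.

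Within the Ces1 genes, Ces1f stood at 118, 102 and 86.3 FPKM in irradiated CD24- cells, 12.6, 5.64 and 6.03 FPKM in irradiated CD24+ cells, and 4.79 and 9.81 FPKM in non-irradiated CD24+ cells. Ces1f was higher by 3.57 ± 0.32 log2 units (SE, limma adjusted p = 9.77e-06). Ces1e and Ces1g were also called higher, at 1.31 and 1.87. Ces1c, in mice the esterase secreted into plasma, ran the other way at 10.1, 4.65 and 2.91 FPKM in irradiated CD24- cells, 30.3, 21.4 and 18.5 FPKM in irradiated CD24+ cells, and 38.5 and 4.24 FPKM in non-irradiated CD24+ cells. It was called lower, at -1.93 ± 0.61 log2 units (SE, limma adjusted p = 0.0183), the irradiated gates did not overlap, and the 2 non-irradiated libraries lay farther apart than the gates did. Ces1b followed it at 1.15, 0.605 and 0.667 FPKM in irradiated CD24- cells, 2.92, 2.89 and 2.76 FPKM in irradiated CD24+ cells, and 3.46 and 0.289 FPKM in non-irradiated CD24+ cells. Ces1b was called lower, at -1.11 ± 0.35 log2 units (SE, limma adjusted p = 0.019), a call lost without replicate 2 of the CD24- cells (adjusted p = 0.0523). It reached 1 FPKM in only 1 CD24- library, and so needed CD24+ libraries to pass the filter. Ces1d, a triacylglycerol hydrolase, overlapped between the gates at 7.25, 9.88 and 3.54 FPKM in irradiated CD24- cells, against 8.33, 5.91 and 2.19 FPKM in irradiated CD24+ cells. Ces1d differed by 0.33 ± 0.39 log2 units (SE, limma adjusted p = 0.495). The Ces1 genes lie in one cluster on chromosome 8, and Ces1b and Ces1c share 190 stretches of 50 bases, so a small part of their reads could be assigned to either.

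Phase II began with the glucuronosyltransferases, and all 6 Ugt1 and all 6 Ugt2 genes past the filter were called higher in irradiated CD24- than in irradiated CD24+ cells, with medians of 1.23 and 2.30. Ugt1a7c was the most abundant of its locus at 162, 194 and 149.6 FPKM in irradiated CD24- cells, 16.7, 17.1 and 15.2 FPKM in irradiated CD24+ cells, and 6.31 and 17.1 FPKM in non-irradiated CD24+ cells. Ugt1a7c was higher by 3.28 ± 0.30 log2 units (SE, limma adjusted p = 1.08e-05). Ugt1a1, the enzyme that conjugates bilirubin, stood at 98.7, 110.1 and 48.5 FPKM in irradiated CD24- cells, 8.64, 7.24 and 2.75 FPKM in irradiated CD24+ cells, and 5.32 and 17.8 FPKM in non-irradiated CD24+ cells. Ugt1a1 was higher by 3.62 ± 0.46 log2 units (SE, limma adjusted p = 8.22e-05), and its replicate 3 was the lowest library in both irradiated gates. Ugt1a6a, which conjugates phenols, stood at 6.95, 10.2 and 17.8 FPKM in irradiated CD24- cells, against 2.6, 4.74 and 4.83 FPKM in irradiated CD24+ cells. Ugt1a6a differed by 1.26 ± 0.33 log2 units (SE, limma adjusted p = 0.00677), and missed the threshold after median-of-ratios scaling (adjusted p = 0.068). Ugt1a6b, at 4.06, 4.71 and 3.1 FPKM in irradiated CD24- cells, against 0.863, 1.46 and 1.16 FPKM in irradiated CD24+ cells, differed by 1.19 ± 0.20 log2 units (SE, limma adjusted p = 0.000441). Ugt1a10 and Ugt1a9, both low, were called higher by 0.96 and 0.93 log2 units. Ugt1 transcripts use their own first exon and share all later ones, and 52.1% to 79.8% of their 50-base stretches occur in other genes, so the split of FPKM among the 6 is uncertain.

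Of the Ugt2 genes, Ugt2b5 and Ugt2b38 share 41.7% and 37.4% of their stretches with other genes, and the other 4 at most 4.55%. Ugt2b34 was the most abundant glucuronosyltransferase of every group, at 266, 341 and 272 FPKM in irradiated CD24- cells, 59.3, 52.9 and 48 FPKM in irradiated CD24+ cells, and 41.2 and 59.2 FPKM in non-irradiated CD24+ cells. It was higher by 2.43 ± 0.24 log2 units (SE, limma adjusted p = 1.56e-05), and its non-irradiated libraries were close to the irradiated CD24+ ones. Ugt2a3 stood at 50.3, 67.7 and 23.8 FPKM in irradiated CD24- cells, against 4.68, 3.32 and 1.39 FPKM in irradiated CD24+ cells. Ugt2a3 was higher by 3.51 ± 0.43 log2 units (SE, limma adjusted p = 5.95e-05). Ugt2b35 kept a larger share of its level in the Paneth gate, at 22, 28.3 and 21.6 FPKM in irradiated CD24- cells, against 9.59, 9.04 and 8.4 FPKM in irradiated CD24+ cells. Ugt2b35 differed by 1.31 ± 0.23 log2 units (SE, limma adjusted p = 0.000662). Ugt2b36 and Ugt2b38 were called higher by 1.66 and 2.18 log2 units. Ugt2b5 stood at 11.2, 11.3 and 15.7 FPKM in irradiated CD24- cells, 1.05, 0.394 and 0.756 FPKM in irradiated CD24+ cells, and 1.93 and 2.47 FPKM in non-irradiated CD24+ cells. Ugt2b5 was higher by 2.99 ± 0.20 log2 units (SE, limma adjusted p = 5.58e-06).

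All 4 cytosolic sulfotransferases past the filter, of 18 matched, were called higher, with a median of 3.39. Sult1b1, which sulfates phenols and thyroid hormones, stood at 153, 197 and 154 FPKM in irradiated CD24- cells, 12.1, 8.52 and 5.99 FPKM in irradiated CD24+ cells, and 5.93 and 19.1 FPKM in non-irradiated CD24+ cells. It was higher by 4.14 ± 0.36 log2 units (SE, limma adjusted p = 9.64e-06), and the CD24- libraries lay well above all others. Sult1d1, which sulfates catecholamines, stood at 144, 189 and 108 FPKM in irradiated CD24- cells, 28, 24.3 and 13.7 FPKM in irradiated CD24+ cells, and 19.7 and 31.2 FPKM in non-irradiated CD24+ cells. Sult1d1 was higher by 2.71 ± 0.31 log2 units (SE, limma adjusted p = 4.34e-05). Sult2b1, which sulfates cholesterol and other sterols, stood at 71.7, 73.7 and 109.7 FPKM in irradiated CD24- cells, 3.83, 3.68 and 4.47 FPKM in irradiated CD24+ cells, and 1.31 and 9.38 FPKM in non-irradiated CD24+ cells. Sult2b1 was higher by 4.08 ± 0.43 log2 units (SE, limma adjusted p = 2.32e-05). Sult1c2, at 7.64, 12.7 and 7.76 FPKM in irradiated CD24- cells, against 2.8, 3.13 and 2.31 FPKM in irradiated CD24+ cells, differed by 1.44 ± 0.21 log2 units (SE, limma adjusted p = 0.000211).

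Glutathione S-transferases differed widely by class. The 4 Gsta genes (alpha class), which act on aldehydes from lipid peroxidation and are known targets of Nfe2l2, were all called higher with a median of 3.56. Gsta1 stood at 144, 264 and 599 FPKM in irradiated CD24- cells, 10.2, 9.25 and 25.1 FPKM in irradiated CD24+ cells, and 4.02 and 25.2 FPKM in non-irradiated CD24+ cells. It was higher by 4.30 ± 0.63 log2 units (SE, limma adjusted p = 0.000193), but its CD24- libraries spanned a wide range, with replicate 3 the highest, and 90.5% of its stretches occur in other genes. Gsta4, whose transcripts share no such stretch, also had replicate 3 as the highest library of each irradiated gate, at 81.3, 117 and 312 FPKM in irradiated CD24- cells, 7.8, 7.07 and 24.4 FPKM in irradiated CD24+ cells, and 3.89 and 11.9 FPKM in non-irradiated CD24+ cells. Gsta4 differed by 3.57 ± 0.56 log2 units (SE, limma adjusted p = 0.000291). Gsta2 stood at 16.8, 17.7 and 84.1 FPKM in irradiated CD24- cells, against 1.2, 0.629 and 3.87 FPKM in irradiated CD24+ cells. Gsta2 was higher by 3.55 ± 0.58 log2 units (SE, limma adjusted p = 0.00037), and 49.8% of its stretches occur in other genes, mostly Gsta1. Gsta3 overlapped between the gates at 6.97, 8.61 and 27.4 FPKM in irradiated CD24- cells, 1.71, 1.03 and 9.24 FPKM in irradiated CD24+ cells, and 1.07 and 0.911 FPKM in non-irradiated CD24+ cells, and its call, 1.76 ± 0.57 log2 units (SE, limma adjusted p = 0.0219), was lost after median-of-ratios scaling (adjusted p = 0.132) and without replicate 3 of the CD24- cells or replicate 1 or 2 of the irradiated CD24+ cells (adjusted p = 0.0556, 0.0542 and 0.0787).

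The 7 Gstm genes (mu class) were divided, with 4 called higher, 0 lower and 3 not called, and a median of 1.72. Gstm3 was called higher, at 92.8, 104 and 208 FPKM in irradiated CD24- cells, 10.4, 10.4 and 18.8 FPKM in irradiated CD24+ cells, and 11.3 and 43.6 FPKM in non-irradiated CD24+ cells. Gstm3 differed by 3.21 ± 0.46 log2 units (SE, limma adjusted p = 0.000163). Gstm6, Gstm7 and Gstm4 were called higher by 2.83, 2.01 and 1.72. Gstm2 and Gstm5 were close to level across the series: Gstm2 stood at 24.2, 26.3 and 28.8 FPKM in irradiated CD24- cells, 20.1, 23 and 26.2 FPKM in irradiated CD24+ cells, and 21.4 and 26.5 FPKM in non-irradiated CD24+ cells. Gstm2 differed by 0.19 ± 0.20 log2 units (SE, limma adjusted p = 0.43). Gstm5, the most abundant mu transferase of irradiated CD24+ cells by its mean, stood at 23.3, 25.5 and 26 FPKM in irradiated CD24- cells, 24.9, 29.3 and 37.4 FPKM in irradiated CD24+ cells, and 21 and 26.5 FPKM in non-irradiated CD24+ cells. Gstm5 differed by -0.26 ± 0.21 log2 units (SE, limma adjusted p = 0.311). Median-of-ratios scaling turned Gstm2 to -0.35 and called Gstm5 lower at -0.81, with adjusted p = 0.0028. Rescaling to TPM went the other way and called both higher, Gstm2 at 1.41 (adjusted p = 0.000113) and Gstm5 at 0.96 (adjusted p = 0.0032). Gstm1 stood at 37.4, 36.4 and 120.1 FPKM in irradiated CD24- cells, 19.1, 21.3 and 41.4 FPKM in irradiated CD24+ cells, and 13 and 31.6 FPKM in non-irradiated CD24+ cells and was not called, at 1.06 ± 0.48 log2 units (SE, limma adjusted p = 0.0808), while with replicate number as a block its adjusted p was 0.00112.

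The 8 other transferases were all called higher, with a median of 1.87, and included the most abundant enzymes of the set. Gsto1, the omega transferase that also reduces dehydroascorbate, had the highest level of the 80 genes in CD24- cells, at 551, 599.9 and 716 FPKM in irradiated CD24- cells, 117, 112 and 121 FPKM in irradiated CD24+ cells, and 44.1 and 90.2 FPKM in non-irradiated CD24+ cells. Its gates differed by 2.40 ± 0.30 log2 units (SE, limma adjusted p = 6.16e-05), and it was still abundant in every library of the Paneth gate. Gstp1 (pi class) stood at 369, 479 and 358 FPKM in irradiated CD24- cells, 88.6, 128 and 135 FPKM in irradiated CD24+ cells, and 45.4 and 87.8 FPKM in non-irradiated CD24+ cells. Gstp1 differed by 1.78 ± 0.31 log2 units (SE, limma adjusted p = 0.00057), and 33.7% of its stretches occur in other genes, mostly Gstp2. Gstp2 followed it at 177, 217 and 181 FPKM in irradiated CD24- cells, against 38.2, 51.9 and 57.5 FPKM in irradiated CD24+ cells. Gstp2 was higher by 1.96 ± 0.27 log2 units (SE, limma adjusted p = 0.000131), and 54.3% of its stretches occur in other genes, mostly Gstp1. Gstt1 (theta class) stood at 67, 107 and 182 FPKM in irradiated CD24- cells, 14.6, 29.3 and 30.9 FPKM in irradiated CD24+ cells, and 9.8 and 11.9 FPKM in non-irradiated CD24+ cells. Gstt1 was higher by 2.16 ± 0.37 log2 units (SE, limma adjusted p = 0.00052). Gstk1, the transferase of mitochondria and peroxisomes, stood at 65.2, 76.3 and 73.4 FPKM in irradiated CD24- cells, 9.09, 9.25 and 10.4 FPKM in irradiated CD24+ cells, and 4.68 and 6.71 FPKM in non-irradiated CD24+ cells. Gstk1 was higher by 2.78 ± 0.19 log2 units (SE, limma adjusted p = 5.58e-06). Gstt3 and Gstz1, which also degrades tyrosine, were called higher by 1.19 and 0.96 log2 units. Gstt2, at 30.5, 35.9 and 31.5 FPKM in irradiated CD24- cells, 14.9, 18.6 and 18.7 FPKM in irradiated CD24+ cells, and 8.45 and 12.7 FPKM in non-irradiated CD24+ cells, had the smallest difference of the 8, 0.87 ± 0.21 log2 units (SE, limma adjusted p = 0.00416).

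**Figure D3:**
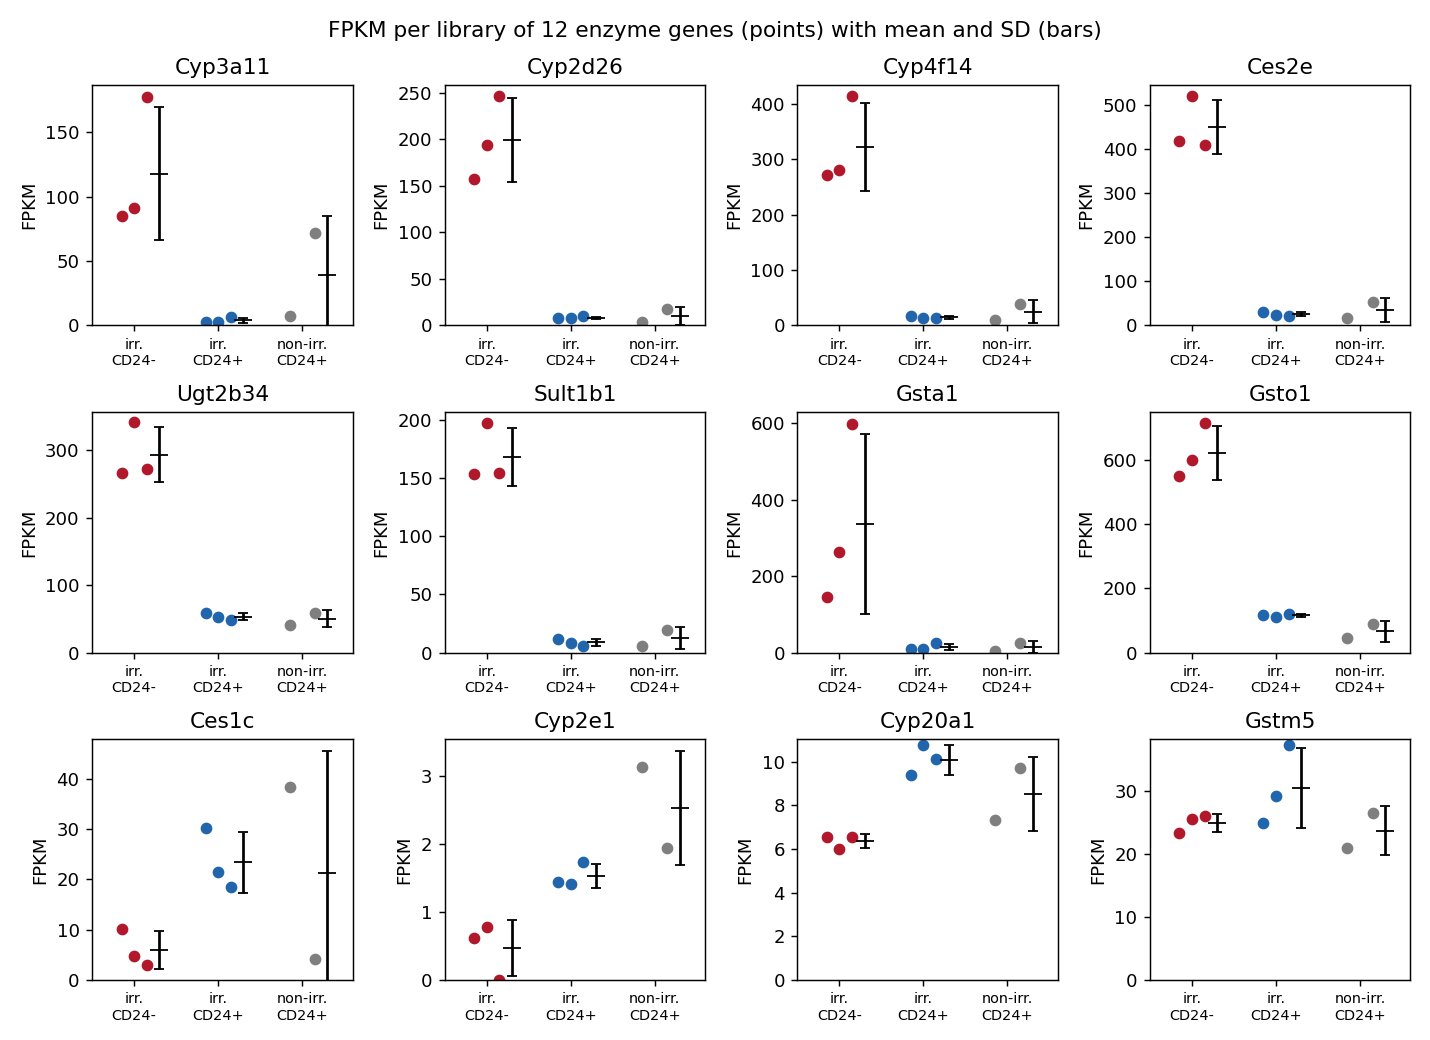
FPKM of 12 enzymes in each library (points) with the mean and SD of each group (bars), on linear axes from 0; groups run irradiated CD24-, irradiated CD24+, non-irradiated CD24+. The first 8 enzymes are highest in CD24- cells, Ces1c, Cyp2e1 and Cyp20a1 have their lowest mean there, and Gstm5 overlaps between the groups.

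Enzymes of the same pathway that the name rule leaves out were counted from 87 genes of the table, listed by role. Of 74 that passed the filter, 66 were called higher in irradiated CD24- cells and 2 lower. The shares over all genes, for this count and for each list below, were 48.6% and 7.27%. After median-of-ratios scaling they were 32.4% and 24.4%. Regulators were called higher in 10 of 10 cases, and in 9 after median-of-ratios scaling. Nr1i2 stood at 42.5, 43.1 and 42 FPKM in irradiated CD24- cells, 8.56, 9.46 and 7.99 FPKM in irradiated CD24+ cells, and 4.28 and 10.5 FPKM in non-irradiated CD24+ cells. Nr1i2 differed by 2.17 ± 0.26 log2 units (SE, limma adjusted p = 5.04e-05). Nr1i3 stood at 15.8, 19 and 26.1 FPKM in irradiated CD24- cells, 1.45, 1.66 and 0.843 FPKM in irradiated CD24+ cells, and 0.73 and 2.44 FPKM in non-irradiated CD24+ cells. Nr1i3 differed by 3.19 ± 0.28 log2 units (SE, limma adjusted p = 9.03e-06). Nfe2l2 differed by 2.04 ± 0.24 log2 units (SE, limma adjusted p = 4.34e-05), and Hnf4a by 1.32 ± 0.27 log2 units (SE, limma adjusted p = 0.0015). Ahr was low, at 3.65, 3.66 and 2.84 FPKM in irradiated CD24- cells, against 1.76, 1.64 and 1.22 FPKM in irradiated CD24+ cells, and differed by 0.79 ± 0.18 log2 units (SE, limma adjusted p = 0.00305). Por, the electron donor of the microsomal P450s, stood at 68.5, 89.3 and 144 FPKM in irradiated CD24- cells, 10.6, 14.5 and 15.1 FPKM in irradiated CD24+ cells, and 6.54 and 15.6 FPKM in non-irradiated CD24+ cells. Por was higher by 2.77 ± 0.34 log2 units (SE, limma adjusted p = 5.72e-05), and all 5 electron transfer partners past the filter were called higher.

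Cofactor supply was called higher in 9 of 10 genes, and after median-of-ratios scaling in 7, with 1 lower. Papss2, which makes the sulfate donor, stood at 349, 449 and 492 FPKM in irradiated CD24- cells, 22.6, 18.6 and 19 FPKM in irradiated CD24+ cells, and 5.89 and 32.5 FPKM in non-irradiated CD24+ cells. Papss2 differed by 4.34 ± 0.45 log2 units (SE, limma adjusted p = 2.16e-05). Ugdh, which makes the glucuronic acid donor, stood at 158, 192 and 282 FPKM in irradiated CD24- cells, 20.4, 17.9 and 34 FPKM in irradiated CD24+ cells, and 8.06 and 18.6 FPKM in non-irradiated CD24+ cells. Ugdh differed by 3.09 ± 0.35 log2 units (SE, limma adjusted p = 3.49e-05). Slc35a2, a Golgi sugar nucleotide transporter, was not called, at 0.16 ± 0.22 log2 units (SE, limma adjusted p = 0.566). Other phase I enzymes were called higher in 25 of 29 cases, among them the alcohol dehydrogenase Adh1 at 2.92 and the monoamine oxidase Maoa at 3.20, while Ephx1, Fmo2, Aldh1b1 and Cbr3 were not called. With replicate number as a block Fmo2 (adjusted p = 0.00322) and Cbr3 (adjusted p = 1.82e-06) were called higher too. All 6 other conjugating enzymes past the filter were called higher, led in level by the microsomal transferase Mgst3 at 589.7, 732 and 610.1 FPKM in irradiated CD24- cells, against 94.9, 92.2 and 93 FPKM in irradiated CD24+ cells. Transporters were called higher in 11 of 14 cases, among them Abcg2 at 2.79, and Abcc1 and Abcc4, both efflux pumps, were called lower, at -0.88 and -0.96.

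The second comparison sets the derivatives of irradiated mice against the Paneth gate of non-irradiated mice, so that gate and irradiation differ together, and it shares the CD24- libraries with the first. Here 66 enzymes were called higher, 1 lower and 13 not at all, where 65.7% of all genes were called higher and 4.99% lower. The median log2 fold change was 2.22 for the enzymes and 0.88 for all genes. After median-of-ratios scaling 55 were called higher and 5 lower, against 29.6% and 22% of all genes. These counts include the 11 enzymes that passed the filter through the CD24- libraries alone. In the reported fit the other 69 held 57 called higher and 1 lower. The largest family medians were those of Gsta (3.79) and Sult (3.16), and that of Cyp3 was 2.54. Cyp3a11 differed by 2.22 ± 0.72 log2 units (SE, limma adjusted p = 0.017), with 2 unequal non-irradiated libraries. That call was lost after median-of-ratios scaling (1.24, adjusted p = 0.167), without a filter and without replicate 1 of the non-irradiated group. Calls of 10 other enzymes were lost after median-of-ratios scaling: Cyp2c66, Cyp2c68, Cyp2j9, Cyp4b1, Cyp51, Ces1e, Ces2a, Sult1c2, Gsta3 and Gstm1. Cyp2d26 differed by 4.41 ± 0.45 log2 units (SE, limma adjusted p = 2.05e-05) and Gsta1 by 4.63 ± 0.71 log2 units (SE, limma adjusted p = 0.000194). The enzyme called lower was Cyp2e1, at -1.29 ± 0.25 log2 units (SE, limma adjusted p = 0.000979). It passed the filter through CD24+ libraries alone. Ces1c and Ces1b were not called, at -1.20 ± 0.68 log2 units (SE, limma adjusted p = 0.132) and -0.42 ± 0.39 log2 units (SE, limma adjusted p = 0.348), and their values changed with the non-irradiated library kept. Without replicate 2 both were called lower, at -2.66 and -1.31, and without replicate 1 they were 0.26 and 0.47 and not called.

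The third comparison asks what differed in the Paneth gate 5 days after irradiation, and it shares libraries with both others. In it no enzyme was called in either direction at an adjusted p under 0.05 in limma, as was no other gene of the 11190. Median-of-ratios scaling called 0 enzymes as well, where 0% of all genes were called higher and 0.0268% (3 genes) lower. The smallest adjusted p of an enzyme was 0.348. At an unadjusted p under 0.05 there were 7 enzymes with positive and 5 with negative differences, where 12.2% of all genes had positive and 0.536% negative differences. The median log2 fold change was 0.02 for the enzymes and 0.32 for all genes. The 4 enzymes with the smallest p were Ugt2b5, Cyp3a11, Gstk1 and Gstt2. Ugt2b5 differed by -0.90 ± 0.23 log2 units (SE, limma adjusted p = 0.348) in irradiated over non-irradiated CD24+ cells. Cyp3a11 differed by -2.33 ± 0.72 log2 units (SE, limma adjusted p = 0.348), Gstk1 by 0.67 ± 0.22 log2 units (SE, limma adjusted p = 0.348) and Gstt2 by 0.69 ± 0.23 log2 units (SE, limma adjusted p = 0.348), all short of the threshold. Families were spread on both sides of the median of all genes. The Cyp3 median was -0.86 and that of Cyp2 -0.26, while that of the 8 other transferases was 0.77. Summed Cyp3 FPKM were 21.4, 17.47 and 28.05 in irradiated CD24+ cells and 17.45 and 129.2 in non-irradiated CD24+ cells. Summed FPKM of the 8 other transferases were 313.5, 385.7 and 405.9 in irradiated CD24+ cells and 153.6 and 272.5 in non-irradiated CD24+ cells, with no overlap.

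The calls of this comparison changed with the non-irradiated library that was left out. Replicate 2 exceeded replicate 1 by a median of 0.63 over the enzymes, 0.53 over all genes and 2.01 over the enterocyte markers, on the log2(FPKM + 1) scale. Cyp3a11 was at 6.95 and 71.7 FPKM in these libraries and Cyp2c66, an intestinal relative of Cyp2c65, at 1.32 and 12.8 FPKM, while Ces1c was at 38.5 and 4.24 FPKM. Without replicate 2, 17 enzymes passed the threshold with positive and 1 with negative differences after irradiation, where 46.2% of all genes were called higher and 0.134% lower. Without replicate 1, 0 were called higher and 2 lower, Cyp2b10 and Cyp2c66, where 0.0179% and 0.0804% of all genes were called. The part of enterocyte RNA in these values was not tested.

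Set against their own level in the derivatives, the enzymes had a larger median share in the Paneth gate than the enterocyte markers. Of the 80, 62 averaged 5 FPKM or more in irradiated CD24- cells, which leaves out enzymes that are low there. Their median level was 12.1%, 10.7% and 13.1% of the CD24- mean in the 3 irradiated CD24+ libraries, and 6.98% and 19.7% in the 2 non-irradiated ones. For the 18 enterocyte markers the medians were 4.54%, 3.52% and 5.29% in irradiated CD24+ cells, and 2.47% and 10.9% in non-irradiated CD24+ cells. Both lists were lowest in replicate 1 and highest in replicate 2 of the non-irradiated group. Between single enzymes the share varied widely: Cyp3a11 stood at 3.42% and Cyp2d26 at 4.24% of the CD24- mean in irradiated CD24+ cells, Gsto1 at 18.7%, Gstp1 at 29.2%, Gstt2 at 53.4% and Gstm2 at 87.4%. The difference between the lists is a description, without a test.

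**Figure D4:**
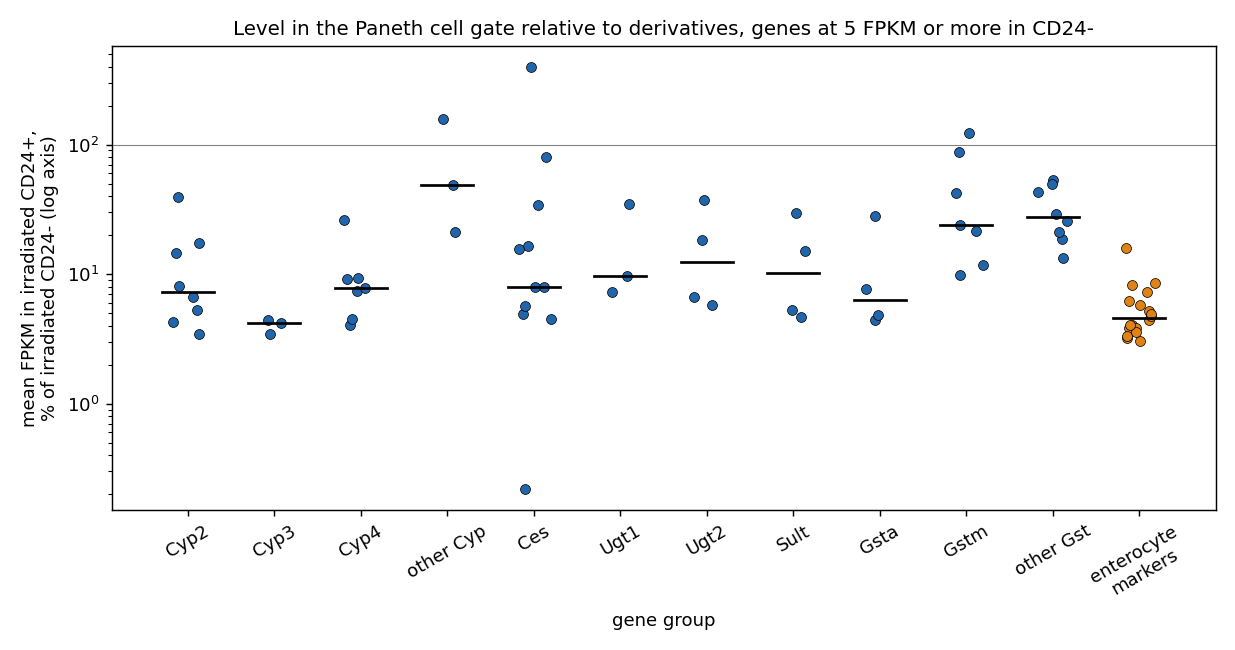
Mean FPKM in irradiated CD24+ cells as a percentage of the mean in irradiated CD24- cells (y axis, log scale) for enzymes at 5 FPKM or more in CD24- cells, by family, and for 18 enterocyte markers (right); bars are medians and the grey line is 100%. Cyp3 genes lie among the enterocyte markers, while Gstm and the other transferases lie mostly above them and Ces1c far above 100%.

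Replicate 3 of both irradiated gates had its own profile of enzymes. The difference between replicate 3 and the mean of replicates 1 and 2, on the log2(FPKM + 1) scale, was positive for all 4 Gsta genes in both gates, with medians of 1.68 in irradiated CD24- and 1.48 in irradiated CD24+ cells. Gstm1, Gstm3, Cyp3a11 and Cyp4b1 were also high in replicate 3, and Ugt2a3, Ces2a, Ugt1a1, Ces1d and Cyp3a25 low, in both. Across the 80 enzymes the deviations of the 2 gates correlated at r = 0.81, against 0.40 across all genes. These points are genes of the same 6 libraries and not independent replicates. Of 24 enzymes with a deviation above 0.5 in CD24- cells, 23 were above 0 in CD24+ cells, and of 15 below -0.5, 13 were below 0. In the same replicate the enterocyte markers deviated by a median of 0.64 in CD24- and 0.22 in CD24+ cells, the Paneth markers by -1.89 and -0.10, and the stem cell markers by -1.19 and -0.23. The enteroendocrine markers deviated by 1.60 and 0.82, with 8 and 12 of 13 above 0. The part of cell makeup in this profile was not tested.

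**Figure D5:**
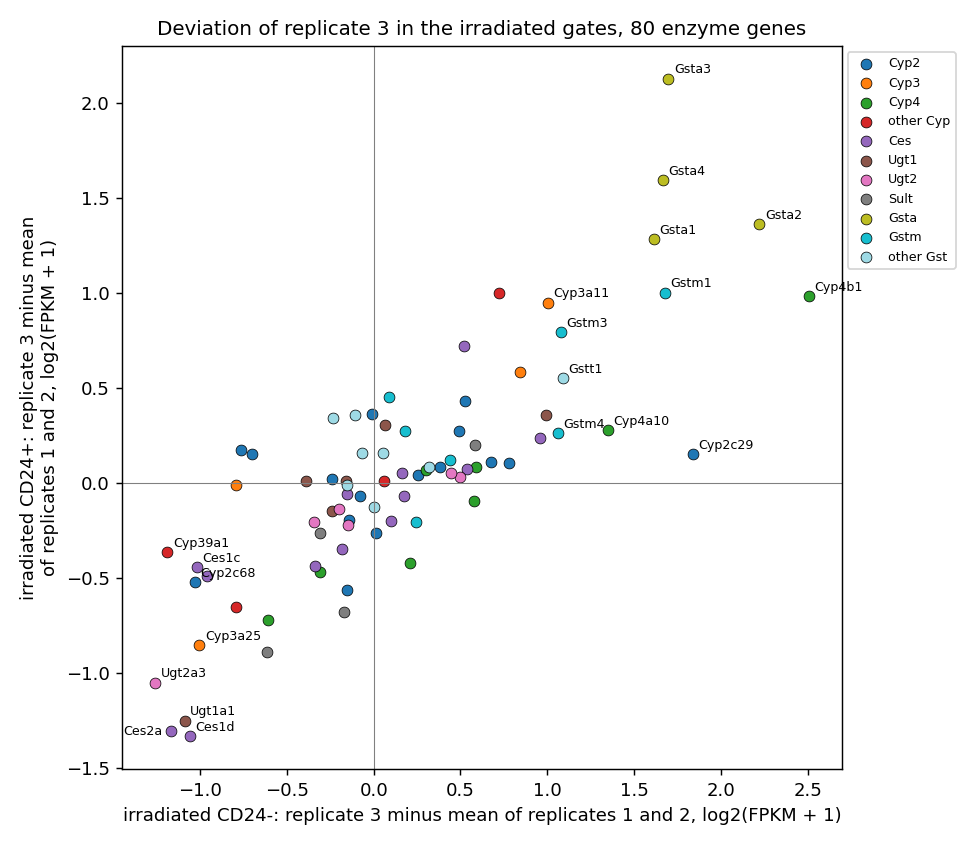
For each of the 80 enzymes (points, coloured by family), replicate 3 minus the mean of replicates 1 and 2 on the log2(FPKM + 1) scale, in irradiated CD24- cells (x axis) and irradiated CD24+ cells (y axis); enzymes beyond 1 or -1 on the x axis are named. Gsta genes sit at the upper right, and Ugt1a1, Ces2a, Ces1d and Ugt2a3 at the lower left.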

How the data were processed

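RNA of sorted cells was sequenced from libraries made with a kit that keeps no strand (TruSeq RNA v2), per the labels' protocols. The authors deposited FPKM per gene and library. The submitters' processing notes name TopHat2 2.1.0, StringTie 1.3.4 and mm9, while annotation, filters and read depth are not stated there, so no counting interval is given. Such FPKM come from read coverage, and reads that match near-identical paralogs may be divided among them. Library sums ran from 540467 to 582799 FPKM in CD24- cells and from 1329221 to 1638347 FPKM in CD24+ cells. Rescaling to TPM therefore shifts the 2 gates against each other.

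The table held 24015 entries for 24013 symbols, with 2 repeated symbols summed. Genes with at least 1 FPKM in at least 2 of 8 libraries were kept (11190) and transformed as log2(FPKM + 1), which understates the fold of genes near 1 FPKM. One limma 3.58.1 model (lmFit, contrasts.fit, eBayes with trend, R 4.3.3) covered the 8 libraries, and a call needed an adjusted p under 0.05 (Benjamini-Hochberg over all genes). SE is limma's moderated standard error. Whether replicates are separate mice is not labelled, and p-values then reflect only the spread between these libraries.

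Same-numbered irradiated CD24- and CD24+ libraries deviated together (r across genes of 0.366, 0.231 and 0.402), against -0.381 to 0.0518 for unlike numbers. No label says what the numbers mark. The reported fit leaves them out, and the replicate block assumes that they pair libraries. Promoters are from RefSeq (GRCm38.p6) and shared 50-base stretches from GENCODE M21 transcripts (79 of 80 enzymes matched). Both differ from mm9 and were used for sequence only. The enzymes, pathway genes and marker lists were chosen with earlier results of these data known. Genes named in the text were the up to 4 most abundant of each family, up to 6 per direction with the largest change, every member of a small set of calls and the leading pathway and marker genes. Further genes were named with their values in view. Alternatives were a pseudocount of 0.1, no filter, a filter at 5 FPKM, median-of-ratios scaling, rescaling to TPM, a fit of the 2 groups compared, a replicate block and leaving out each library. The fitting step was tested on simulated data. Figures used matplotlib 3.10.9.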

Additional observations from a re-analysis of the deposited data

How the results depend on the processing

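Without a filter on low values 1 enzyme was called lower in irradiated CD24- than in irradiated CD24+ cells, with a filter at 5 FPKM 2, after rescaling to TPM 0, and with 1 library left out 2 to 4, against 4 in the reported fit. Against non-irradiated CD24+ cells, where 1 was called lower, the count was 0 with a filter at 5 FPKM, 5 after median-of-ratios scaling, 0 after rescaling to TPM, 2 when the 2 groups were fitted alone, 2 with the replicate block and 1 to 3 with 1 library left out. The counts called higher ran from 66 to 69 and from 60 to 68 with 1 library left out. For irradiated over non-irradiated CD24+ cells, where numbers are only shared names, the replicate block called 4 enzymes lower (Cyp2c29, Cyp2c55, Cyp2c66 and Cyp3a11), and leaving out 1 library called 0 to 17 higher and 0 to 2 lower. A lone library was then assumed to vary like the others. Among the 80 enzymes of the first comparison the block changed the calls of Gstm1 and Cyp2c29, with 70 higher and 4 lower.

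The ratio of summed FPKM of all 80 enzymes between the irradiated gates was 7.09, 4.81 after median-of-ratios scaling and 17.1 after rescaling to TPM. Signs turned for genes with small differences: Cyp20a1 to 0.54 and Gstm5 to 0.96 after rescaling to TPM, both then called higher, Gstm2 to -0.35 after median-of-ratios scaling, and Cyp39a1 to -0.0519 with a pseudocount of 0.1, -0.37 after median-of-ratios scaling and values from -0.23 to 0.41 with 1 library left out. Against non-irradiated cells, Ces1b turned to 0.30 and Ces1c to 0.0484 after rescaling to TPM, and with 1 library left out they ran from -1.31 to 0.47 and from -2.66 to 0.26. Single genes of the first comparison were counted for the enzymes named by abundance, size of change or a small set of calls, with Ahr, Nr1i2, Nr1i3, Nfe2l2, Hnf4a and Por. For these, 795 alternative values kept direction and call, 7 gained the call, 24 lost it and 8 changed sign. Enzymes outside this set changed call too. Among them, Ces3a, Cyp2c67 and Cyp2c68 lost it after median-of-ratios scaling, and Ces1d and Cyp2c29 gained it after rescaling to TPM. The causes were not tested. Replicates number 2 or 3 a group, which limits what small differences can show.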
